A study of Saccharomyces cerevisiae with 46 samples.

Results

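The comparison described here is loss of *PCH2* in cells whose Hop1 cannot bind nucleosomes. It takes 4 of the 46 samples of the series: 2 libraries of *rad50S hop1-loop2 pch2* mapped by CC-seq (covalent-complex sequencing), set against 2 of *rad50S hop1-loop2*. All were chosen by the genotype in the sample titles. The libraries came from SK1 diploids collected 6 h after transfer to sporulation medium, and the titles number 2 replicates of each genotype. The paper describes CC-seq replicates as biologically independent, but its list of libraries does not include *rad50S hop1-loop2 pch2*. Every library carried *rad50S*, and both genotypes carried *hop1-loop2*, so the *pch2* deletion was the only difference in the titles. The paper does not list the strain of the *rad50S hop1-loop2 pch2* libraries. Its strain table lacks the strain named for the *rad50S hop1-loop2* libraries. In that table *rad50S* strains differ in other markers, among them the *HIS4::LEU2* locus. Such differences cannot be told apart from loss of *PCH2*. The 2 *rad50S* libraries with wild-type *HOP1* and *PCH2* are shown as a level and entered no test. No *rad50S pch2* library with wild-type *HOP1* was analysed here, so an effect of *pch2* that needs *hop1-loop2* cannot be told apart from one that does not.

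Spo11 makes the double-strand breaks (DSBs) that start meiotic recombination and stays covalently bound to the broken 5′ ends. In *rad50S* cells the nuclease step that removes Spo11 fails, so the complexes accumulate and unrepaired breaks can be mapped. Hop1 is a HORMA-domain protein of the meiotic chromosome axis that helps bring the Spo11 machinery to DNA. Its central chromatin-binding region contacts nucleosomes, and *hop1-loop2* disrupts that contact. Pch2 is an AAA+ ATPase that remodels Hop1 and removes it from chromosomes. It is also known to keep DSBs low beside the ribosomal DNA (rDNA).

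CC-seq recovers the DNA ends held by Spo11 and counts each sequenced end as a hit at 1 base of the Watson or Crick strand. Values are HpM, in which the nuclear hits of a library are scaled to 1000000, so they are shares of a library and say nothing of how many breaks a cell made. Breaks cluster in hotspots. On the mean of the 4 libraries, 3300 hotspots were called, with a median length of 193 bp, covering 847.1 kb or 7.02% of the mapped sequence. The genome was also divided into 1205 tiles of 10 kb. Except where stated, every library was thinned at random before comparison to 1026669 hits, the total of the shallowest one.

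The deletion was visible in the hits themselves. On chromosome II, from 608633 to 610228 in the coordinates of the SK1 assembly, neither *rad50S hop1-loop2 pch2* library had a hit, which allows up to 0.83 and 2.92 HpM. The same stretch held 25 and 37 hits in *rad50S hop1-loop2*, or 3.98 and 4.63 HpM, and 11 and 15 hits in *rad50S*. It is 1596 bp long, and *PCH2* lies on chromosome II in the S288C reference, where its gene spans 1808 bp. No other stretch of 1 kb or more was empty in both *pch2* libraries and held hits in *rad50S hop1-loop2*. The genotype field of the labels names other alleles than the titles do, and the titles were followed.

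One library stood apart. The totals were 3614810 and 1026669 hits in *rad50S hop1-loop2 pch2* and 6277735 and 7985420 hits in *rad50S hop1-loop2*. At equal depth, hits of *rad50S hop1-loop2 pch2* replicate 2 fell on 190943 strand positions, against 314565 in replicate 1 and 321254 and 333697 in *rad50S hop1-loop2*. Outside hotspots it had 3.67 hits per occupied strand position, against 1.39 in replicate 1 and 1.21 and 1.20 in *rad50S hop1-loop2*. Whether these repeats are copies of the same molecules was not tested, and whether duplicates were removed is not given in the sources used here. Hits outside hotspots were more often single in the other libraries. Single hits made up 6.27% of outside hits in replicate 2, against 53.8% in replicate 1 and 70.7% and 72.0% in *rad50S hop1-loop2*. In *rad50S* they made up 50.5% and 49.9%, outside hotspots that were called without the *rad50S* libraries. Values at the main sites are therefore given per library.

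Hotspot levels differed between *rad50S hop1-loop2 pch2* and *rad50S hop1-loop2* in both directions. With HpM of all nuclear hits, 111 of 3300 hotspots rose (3.36%) and 396 fell (12%), by limma with Benjamini-Hochberg adjusted p below 0.05. The median change over all hotspots was −0.27 on the log2 scale, but it was −0.04 without *rad50S hop1-loop2 pch2* replicate 2 and −0.46 without replicate 1. Of all hits, 84.6% and 63.7% lay inside hotspots in *rad50S hop1-loop2 pch2*, against 88.9% and 88.7% in *rad50S hop1-loop2*. Expressed as HpM of the hits inside hotspots, the median change was 0.00, and 421 hotspots rose (12.8%) while 390 fell (11.8%). All 111 rising hotspots and 350 of the 396 falling ones were called in the same direction on that scale. Without *rad50S hop1-loop2 pch2* replicate 2, an alternative chosen after seeing the data, 474 rose and 422 fell as HpM of the hits inside hotspots. On all nuclear hits the same omission gave 95 rising and 146 falling hotspots. When each strand position of all reads was counted once, without thinning, no hotspot passed the limma threshold, although 482 had an unadjusted p under 0.05. The libraries then differed in depth, from 190943 to 992436 occupied positions, so this count is no check for repeats at equal depth. With either *rad50S hop1-loop2* replicate left out, 5 rose and 0 fell, with 266 and 298 at an unadjusted p under 0.05, on a spread taken from the *pch2* pair alone.

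Hotspot levels were correlated between all 4 libraries. Over the 3300 hotspots, log2 levels correlated at r = 0.94 between the *pch2* replicates, 0.98 between the *rad50S hop1-loop2* replicates and 0.89 to 0.93 between genotypes. Hotspots of 1 library share its depth and are not independent points, so these are descriptions.

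The 5 largest increases were a mixed set. The largest fitted change was an exception that rested on 1 library. On chromosome X, 502258 to 502404, the level was 17.5 and 423 HpM in *rad50S hop1-loop2 pch2*, against 5.84 and 4.87 HpM in *rad50S hop1-loop2*. A single strand position held 97.7% of the hits of replicate 2 there, and likewise 83.3% to 100% of the few hits of the other libraries that had any. Without that replicate the log2 change was 1.55 and limma's adjusted p was 0.12.

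The next was the hotspot beside the deletion. On chromosome II, 610291 to 610551, which begins 62 bp past the empty stretch, the level was 375 and 329 HpM in *rad50S hop1-loop2 pch2*, against 34.1 HpM in both *rad50S hop1-loop2* libraries. The *pch2* libraries were 10.3 times higher on average, and both lay far above both others (log2 3.33 ± 0.33 SE, limma adjusted p 1.43e-10). *rad50S* had 23.4 and 17.5 HpM there. On the other side of the stretch, the hotspot at 608126 to 608657, whose last bases lie within it, fell to 125 and 113 HpM in *rad50S hop1-loop2 pch2*, against 288.3 and 325.3 HpM in *rad50S hop1-loop2* (log2 −1.36, limma adjusted p 0.0020). This hotspot was singled out after its values were seen. The sequence that replaced *PCH2* was not used here, and its part in these changes cannot be told apart from that of losing Pch2. The next hotspot, at 612318 to 612464, had 62.3 and 48.7 HpM in *rad50S hop1-loop2 pch2* and 42.9 and 53.6 HpM in *rad50S hop1-loop2*, an overlap.

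The remaining 3 increases lay on chromosomes XII, III and XVI. The most active was on chromosome XII, 411335 to 411774, at 1072 and 780 HpM in *rad50S hop1-loop2 pch2* and 150 and 156 HpM in *rad50S hop1-loop2*. It rose 6.06-fold (log2 2.57 ± 0.30 SE, limma adjusted p 1.33e-08), and *rad50S* had 130 and 62.3 HpM. On chromosome III, 320603 to 320758, the level was 125 and 100.3 HpM in *rad50S hop1-loop2 pch2* and 16.6 and 15.6 HpM in *rad50S hop1-loop2*. This site lies 20.1 kb from the end of the chromosome. On chromosome XVI, 4089 to 4234, the level was 90.6 and 105 HpM in *rad50S hop1-loop2 pch2*, against 20.5 and 16.6 HpM in *rad50S hop1-loop2*, and *rad50S* stood at 99.4 and 85.7 HpM.

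The 5 largest decreases were smaller in size than the increases. On chromosome XV, 223413 to 223700, the level fell to 186 and 168 HpM in *rad50S hop1-loop2 pch2*, against 661 and 703 HpM in *rad50S hop1-loop2* (log2 −1.94 ± 0.30 SE, limma adjusted p 1.68e-05). *rad50S* had 1415 and 1394 HpM at the same site. On chromosome IX, 83628 to 83904, it was 93.5 and 51.6 HpM in *rad50S hop1-loop2 pch2* and 245.5 and 297 HpM in *rad50S hop1-loop2*. Both sites were low in both *pch2* libraries. The other 3 lay on chromosomes VII (98293 to 98487), XIV (149905 to 150063) and XII (785764 to 785912) and were lowest in the shallow library. The site on VII had 48.7 and 12.7 HpM in *rad50S hop1-loop2 pch2*, against 120 and 142 HpM in *rad50S hop1-loop2*. The site on XIV had 60.4 and 15.6 HpM in *rad50S hop1-loop2 pch2*, against 169 and 107 HpM in *rad50S hop1-loop2*. On XII, *rad50S hop1-loop2 pch2* stood at 45.8 and 8.77 HpM and *rad50S hop1-loop2* at 80.8 and 94.5 HpM. Without *rad50S hop1-loop2 pch2* replicate 2 the sites on XIV and XII no longer passed, at limma adjusted p of 0.096 and 0.088.

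**Figure D1:**
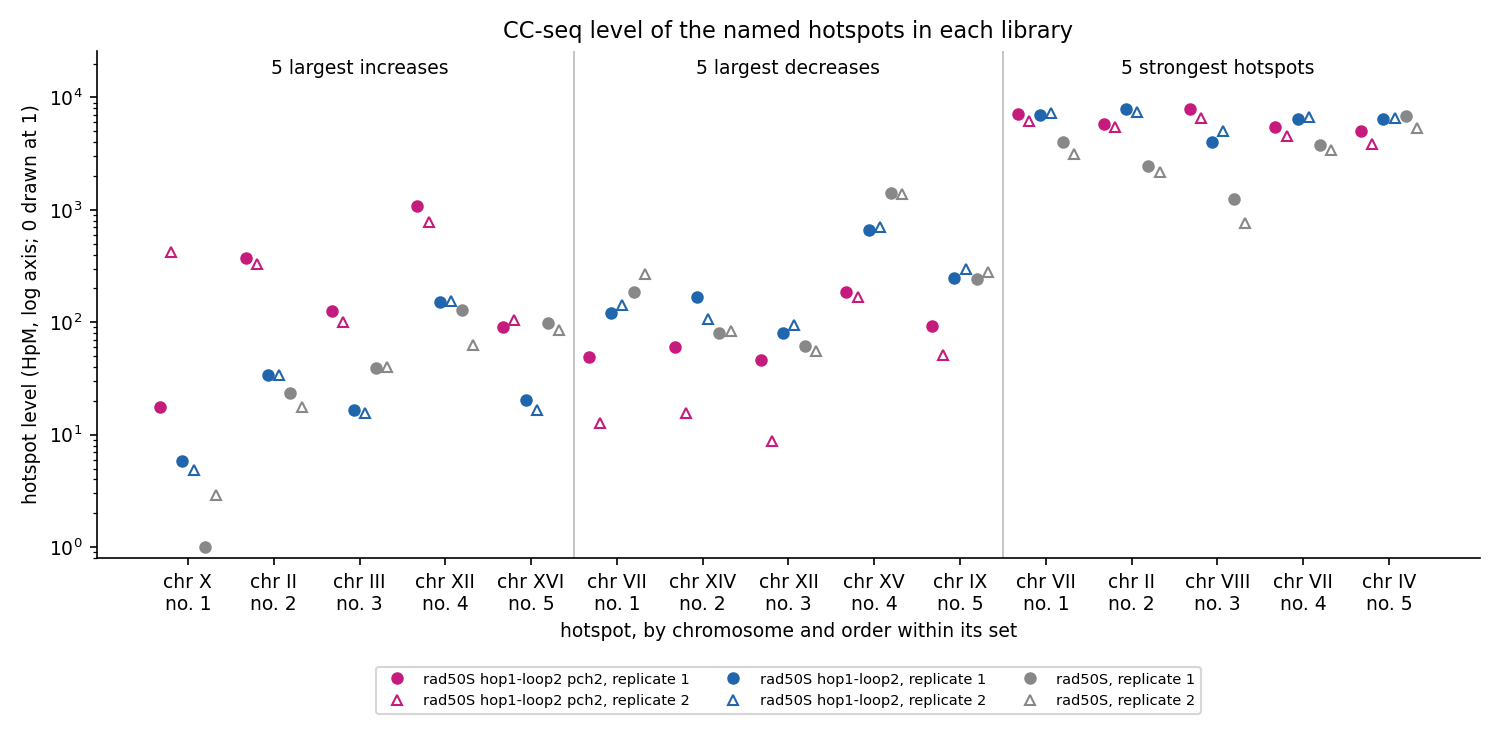
Level of 15 hotspots (HpM, log axis, a level of 0 drawn at 1) in each library, with replicate 1 as filled circles and replicate 2 as open triangles for *rad50S hop1-loop2 pch2* (pink), *rad50S hop1-loop2* (blue) and *rad50S* (grey). In the first set the site on X is split between 17.5 and 423 HpM in the pink points, and the 5 strongest hotspots lie between 3883 and 7960 HpM in both *hop1-loop2* genotypes.

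None of the 5 strongest hotspots passed on all hits. The strongest of all, on chromosome VII at 602389 to 603687, had 7102 and 6150 HpM in *rad50S hop1-loop2 pch2* and 6937 and 7242 HpM in *rad50S hop1-loop2*, so the groups overlapped. The hotspot on chromosome VIII at 118090 to 119203 stood out among the 5. It had 7849 and 6576 HpM in *rad50S hop1-loop2 pch2*, 3980 and 5000 HpM in *rad50S hop1-loop2* and 1259 and 765 HpM in *rad50S*. Its limma adjusted p was 0.057 on all hits (log2 0.69 ± 0.25 SE) and 7.42e-05 as HpM of the hits inside hotspots. The other 3, on chromosomes II (710544 to 711931), VII (399153 to 399963) and IV (823699 to 824580), had 3883 to 5816 HpM in *rad50S hop1-loop2 pch2* and 6380 to 7960 HpM in *rad50S hop1-loop2*, below in both libraries but with limma adjusted p of 0.12 to 0.31. As HpM of the hits inside hotspots, only the one on IV passed, at 0.036.

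Changes extended over neighbouring tiles. Of 1205 tiles of 10 kb, 178 rose (14.8%) and 171 fell (14.2%) on all hits, and 183 rose and 183 fell (15.2% each) when only hits inside hotspots were used. In each direction 137 tiles were called on both scales. Without *rad50S hop1-loop2 pch2* replicate 2, and with hits inside hotspots only, the counts were 179 and 172, chosen after seeing the data. On all hits they were 303 and 163 without that library. Counting each strand position of all reads once, at unequal depth, left 0 tiles called by limma, with 383 at an unadjusted p under 0.05. The falling tiles had a median level of 1416 HpM in *rad50S hop1-loop2*, beside 462 HpM for the rising tiles and 473 HpM for all tiles. The calls used these same *rad50S hop1-loop2* values, so the levels are descriptions. Of the 116 tiles without a hotspot, 20 rose and 0 fell on all hits. The called tiles formed 11 runs of at least 4 neighbouring tiles that rose, on 10 chromosomes and 659 kb in all, and 4 runs that fell, on 4 chromosomes and 180.0 kb.

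The 2 longest runs each spanned 110.0 kb. On chromosome III, from 30001 to 140000, hits summed to 13071 and 11901 HpM in *rad50S hop1-loop2 pch2* and to 6318 and 6810 HpM in *rad50S hop1-loop2*, a ratio of 1.90. The run held 39 hotspots, of which 26 lay above in both *pch2* libraries and 0 below (16.6% and 40.8% of all hotspots did so). Runs were formed from tiles called in the same libraries, so counts of the hotspots in them are descriptions and nothing is read from them. On chromosome IV, from 420001 to 530000, hits summed to 19158 and 15880 HpM in *rad50S hop1-loop2 pch2* and to 10284 and 12435 HpM in *rad50S hop1-loop2*, a ratio of 1.54. Here 25 of 47 hotspots lay above and 0 below. This segment was cold in *rad50S*, at 2274 and 2517 HpM. All 11 tiles of the IV run and 10 of the 11 tiles of the III run also passed with hits inside hotspots only.

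**Figure D2:**
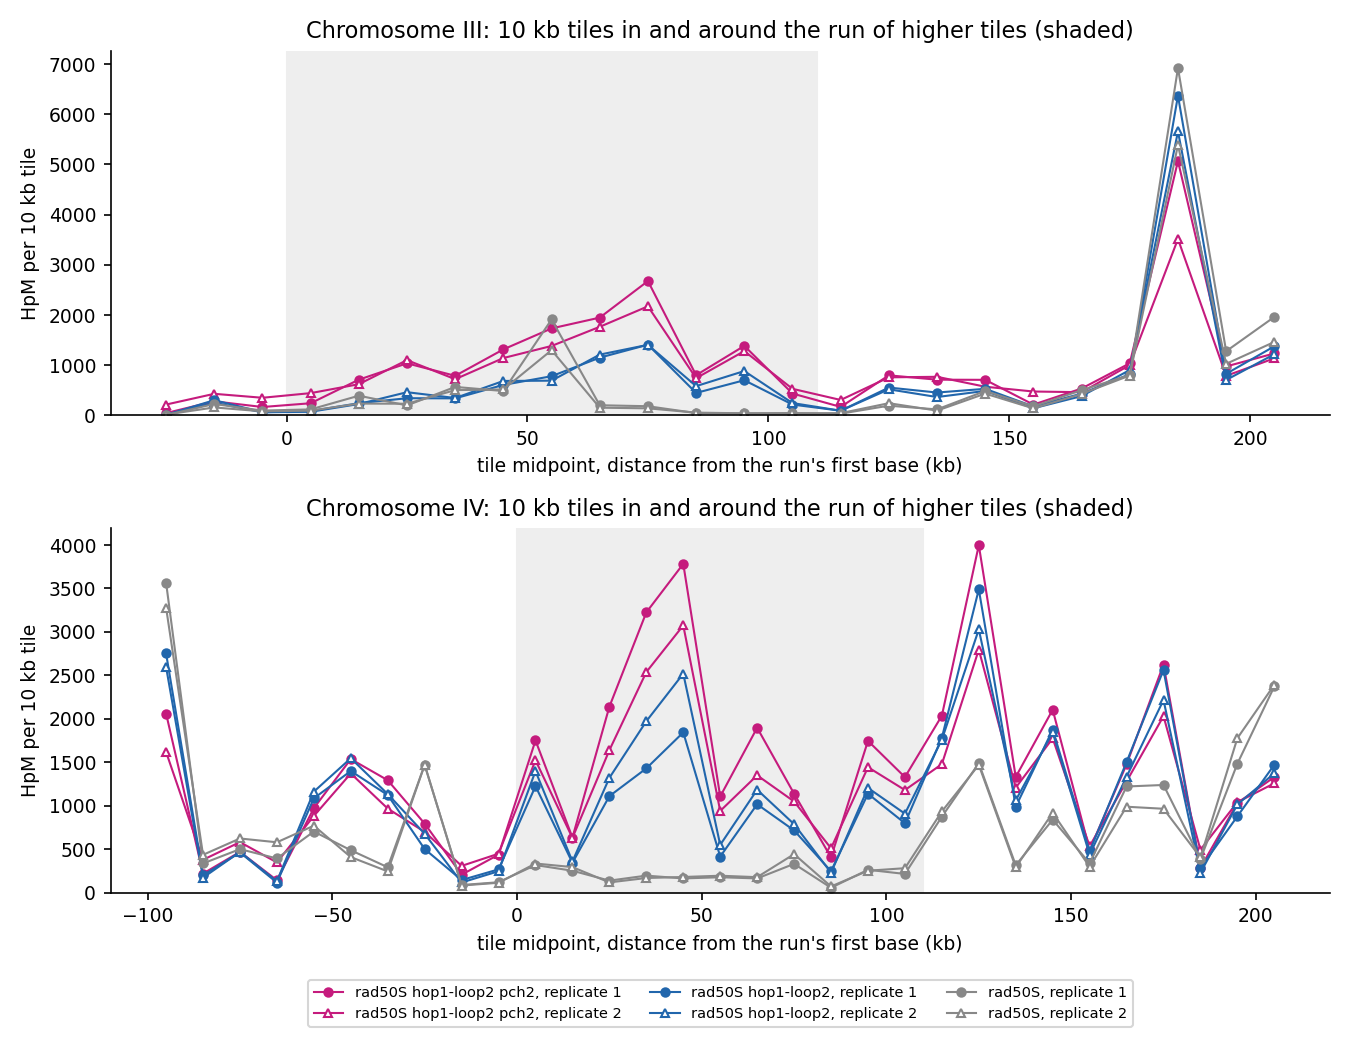
HpM per 10 kb tile against the distance of the tile from the first base of the run (kb) on chromosome III (top) and chromosome IV (bottom), with the run of rising tiles shaded and 1 line per library. Inside the shaded runs the *rad50S hop1-loop2 pch2* lines (pink) lie above the *rad50S hop1-loop2* lines (blue), and the summed ratios are 1.90 on III and 1.54 on IV.

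Of the remaining rising runs, 7 had ratios between 1.58 and 1.98. On chromosome XIV, from 600001 to 660000, the sums were 14664 and 12178 HpM in *rad50S hop1-loop2 pch2*, against 8081 and 8917 HpM in *rad50S hop1-loop2* and 2782 and 2646 HpM in *rad50S*. On chromosome X, from 420001 to 470000, they were 7364 and 6102 HpM in *rad50S hop1-loop2 pch2* and 3615 and 4433 HpM in *rad50S hop1-loop2*, with 1466 and 1481 HpM in *rad50S*. Both of these segments ran in the same order as the one on IV, with *rad50S* lowest. The rising runs on III, V, VIII, XIII and XV also had *rad50S* lowest. The run on chromosome VIII, from 70001 to 110000, had the highest ratio of the 7, at 3812 and 3406 HpM in *rad50S hop1-loop2 pch2* and 1654 and 1991 HpM in *rad50S hop1-loop2*. Runs of 5 tiles on V (160001 to 210000) and XIII (240001 to 290000) and of 6 tiles on XV (290001 to 350000) had ratios of 1.68, 1.58 and 1.60. On chromosome IX, from 320001 to 360000, the order differed. That run had 3413 and 3367 HpM in *rad50S hop1-loop2 pch2*, 1746 and 1982 HpM in *rad50S hop1-loop2* and 5241 and 4568 HpM in *rad50S*. In these 7 runs no hotspot lay below in both *pch2* libraries, beside 40.8% of all hotspots. The runs were formed from the same libraries, so this is a description.

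The falling runs had 4 or 5 tiles each. On chromosome IV, from 210001 to 260000, the sums were 3397 and 3746 HpM in *rad50S hop1-loop2 pch2* and 6361 and 6214 HpM in *rad50S hop1-loop2*, a ratio of 0.57, with 5641 and 5718 HpM in *rad50S*. On chromosome II, from 120001 to 160000, all 14 hotspots lay below in both *pch2* libraries, and the ratio was again 0.57. Of all hotspots 40.8% lay below, and this run too was formed from the same libraries. The runs on XI (70001 to 110000) and IX (120001 to 170000) had ratios of 0.63 and 0.68. On all hits the deepest single tile was on chromosome VII, from 220001 to 230000 (log2 −1.31 ± 0.13 SE, limma adjusted p 3.07e-22). It had 929 and 1007 HpM in *rad50S hop1-loop2 pch2* and 2235 and 2569 HpM in *rad50S hop1-loop2*. The SE behind that p-value is the spread pooled over tiles of similar level, not that of this tile's own replicates. The other 4 named decreases, on XIV (200001 to 210000), XI (570001 to 580000), XV (220001 to 230000) and II (150001 to 160000), had log2 changes of −1.24, −1.12, −1.11 and −1.11.

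The 5 tiles with the largest fitted increases were of another kind. They lay on III (1 to 10000), XII (430001 to 440000), IX (420001 to 430000), XV (1 to 10000) and XIII (900001 to 910000), and none of them held a hotspot. With tiles under a mean of 20 HpM left out, none of the 5 passed (limma adjusted p 0.062 to 0.26), and with the replicate number as a block 4 of the 5 did not (0.13 to 0.22). The tile on III had 45.8 and 215 HpM in *rad50S hop1-loop2 pch2* and 9.74 and 10.7 HpM in *rad50S hop1-loop2*. For all 5, replicate 2 stood at 215 to 320 HpM, and the mean density outside hotspots in that library was 324 HpM per 10 kb. In replicate 1 that density was 137 HpM per 10 kb, against 99.4 and 100.5 HpM in *rad50S hop1-loop2*. A run on IX that ended at the last hit, from 410001 to 449464, also differed strongly between the replicates, at 439 and 1071 HpM in *rad50S hop1-loop2 pch2* and 157 and 159 HpM in *rad50S hop1-loop2*. Only 1 of its 4 tiles passed with hits inside hotspots only.

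The highest ratio of any run, 5.01, was on chromosome XII from 400001 to 450000. Hits there summed to 2243 and 2473 HpM in *rad50S hop1-loop2 pch2*, against 473 and 469 HpM in *rad50S hop1-loop2* and 433 and 311 HpM in *rad50S*. The run overlaps the left part of a 17.4-kb stretch, from 444320 to 461733, with 0 hits in both *hop1-loop2* genotypes and 1 hit in *rad50S*. The rDNA array of budding yeast lies on this chromosome and its repeats cannot be placed uniquely, but no annotation of this assembly was used, so the stretch was not identified by sequence. The hotspot at 411335 to 411774 lies 32.5 kb to the left of it.

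Sites on both sides of the empty stretch rose. The 36 hotspots within 80 kb of it, a distance chosen after seeing the data, took 1.26% and 1.20% of the hits inside hotspots in *rad50S hop1-loop2 pch2*, against 0.59% and 0.53% in *rad50S hop1-loop2* and 0.30% and 0.24% in *rad50S*. As HpM of the hits inside hotspots, 27 of the 36 rose and 0 fell, and on all nuclear hits 14 rose and 0 fell, beside 12.8% and 3.36% of all hotspots that rose on these scales. The region was chosen from the same contrast, so the counts are descriptions. The nearest hotspot on the left, 1.17 kb away at 442985 to 443154, had 165 and 68.2 HpM in *rad50S hop1-loop2 pch2* and 26.3 and 39.0 HpM in *rad50S hop1-loop2*. The nearest on the right, 2.81 kb away at 464545 to 464623, had 39.9 and 40.9 HpM in *rad50S hop1-loop2 pch2* and 6.82 and 8.77 HpM in *rad50S hop1-loop2*. Both were higher in both libraries. Further right, the hotspot at 481350 to 482183 had 1570 and 1077 HpM in *rad50S hop1-loop2 pch2*, 525 and 583 HpM in *rad50S hop1-loop2* and 133 and 117 HpM in *rad50S*. In bins of 10 kb the ratio to the right was 4.33 in the first bin and 0.99 in the bin 80 to 90 kb away. To the left it did not follow distance, at 5.51 in the first bin, 7.72 in the second, 1.72 at 70 to 80 kb and 7.97 at 90 to 100 kb. The second and the last of these left bins held no hotspot. The second had 93.5 and 260.1 HpM in *rad50S hop1-loop2 pch2* and 24.4 and 21.4 HpM in *rad50S hop1-loop2*, and every one of these values lay below the mean density outside hotspots of its own library.

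**Figure D3:**
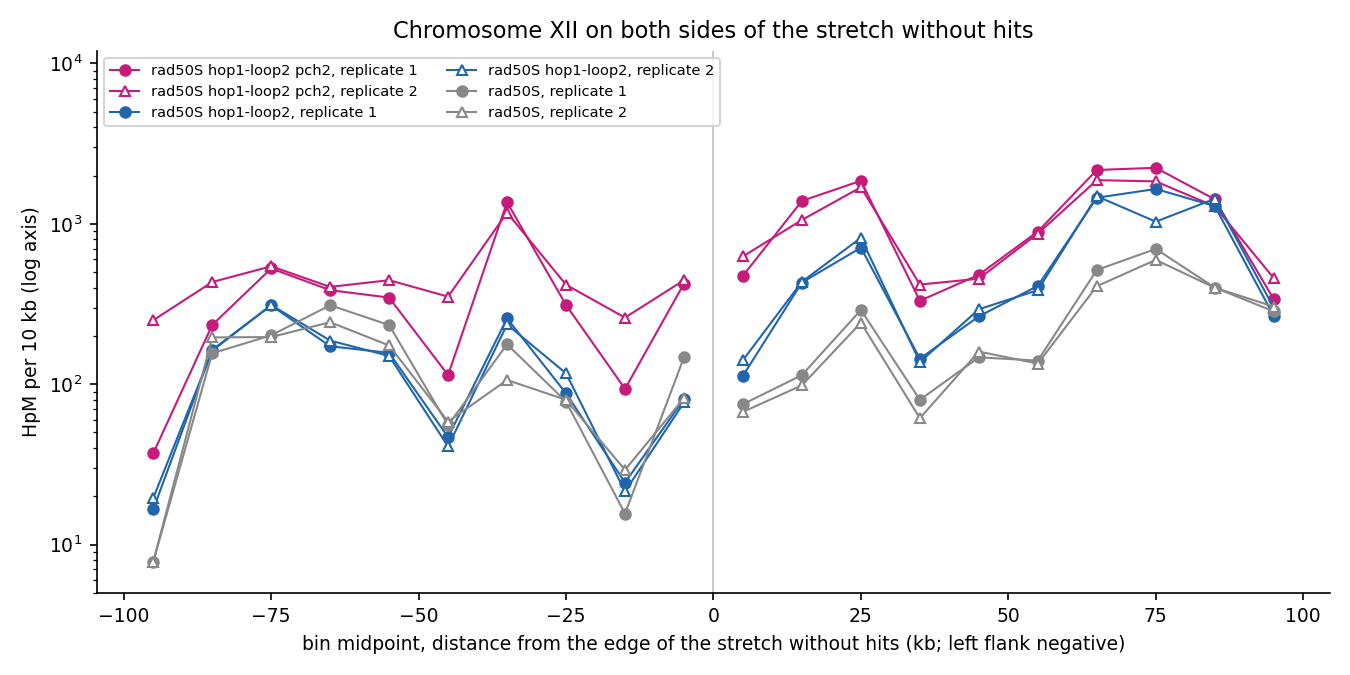
HpM in bins of 10 kb on chromosome XII (log axis) against distance from the edges of the stretch without hits (kb), with 1 line per library on each side. The *rad50S hop1-loop2 pch2* lines (pink) lie above the *rad50S hop1-loop2* lines (blue) in every bin to the left, with ratios of 1.72 to 7.97, and on the right the ratio is 4.33 in the first bin and 0.99 at 80 to 90 kb.

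Chromosomes as wholes also changed their shares. By limma on log2 shares of all hits, chromosomes I, III, V, VI, VIII and XII rose (37.5% of 16) and IV, XI and XV fell (18.8%). With shares of hits inside hotspots, III, V, VI, VIII and XII rose (31.2%) and IV, XI and XV fell (18.8%), and the share of I did not pass. Chromosome III changed most. It took 2.58% and 2.41% of hits inside hotspots in *rad50S hop1-loop2 pch2*, against 1.88% and 1.79% in *rad50S hop1-loop2* and 2.09% and 1.74% in *rad50S*, a ratio of 1.36 (log2 0.44 ± 0.05 SE, limma adjusted p 0.0029). Of its 90 hotspots, 36 rose and 1 fell as HpM of the hits inside hotspots, where 12.8% of all hotspots rose and 11.8% fell. On all nuclear hits 17 rose and 2 fell, where 3.36% rose and 12% fell.

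The shares of chromosomes III and XII moved with single regions. Outside the run described above, the other 51 hotspots of chromosome III held 1.32% and 1.15% of hits inside hotspots in *rad50S hop1-loop2 pch2* and 1.29% and 1.15% in *rad50S hop1-loop2*, a ratio of 1.02. Outside 80 kb on either side of the empty stretch, the other 194 hotspots of chromosome XII held 4.64% and 4.49% in *rad50S hop1-loop2 pch2* and 4.41% and 4.45% in *rad50S hop1-loop2*, a ratio of 1.03. These regions were chosen from the same contrast, so the ratios are descriptions. Chromosomes V and VIII differed in this respect. Without its run, the other 137 hotspots of V still held 4.87% and 4.88% in *rad50S hop1-loop2 pch2*, against 4.44% and 4.28% in *rad50S hop1-loop2*, a ratio of 1.12. The other 130 hotspots of VIII held 4.11% and 4.38% in *rad50S hop1-loop2 pch2*, against 3.72% and 3.94% in *rad50S hop1-loop2*, a ratio of 1.11. Chromosome IV went the other way, at 13.7% in both *rad50S hop1-loop2 pch2* libraries, against 14.95% and 15.04% in *rad50S hop1-loop2*, although it contains 1 of the 2 longest rising runs. Without that run its ratio was 0.85. Chromosome XV fell to 7.43% and 7.37% in *rad50S hop1-loop2 pch2*, against 8.53% and 8.39% in *rad50S hop1-loop2* and 9.36% and 9.57% in *rad50S*.

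The 3 shortest chromosomes, which recombine at a high rate per length in wild type, were all higher in the *pch2* mutant on all hits, with ratios of 1.28, 1.39 and 1.12 for I, III and VI. Chromosome I had 1.03% and 1.20% of all hits in *rad50S hop1-loop2 pch2*, against 0.83% and 0.92% in *rad50S hop1-loop2* and 2.43% and 2.18% in *rad50S*. Inside hotspots its shares were 0.79% and 0.75% in *rad50S hop1-loop2 pch2* and 0.66% and 0.74% in *rad50S hop1-loop2*, a ratio of 1.10 that did not pass (limma adjusted p 0.17). On all hits it did not pass without *rad50S hop1-loop2 pch2* replicate 2 (adjusted p 0.15). Chromosome VI rose modestly, to 1.92% and 1.89% of hits inside hotspots in *rad50S hop1-loop2 pch2*, against 1.75% in both *rad50S hop1-loop2* libraries and 2.97% and 2.77% in *rad50S*, a ratio of 1.09. On both I and VI, *rad50S hop1-loop2 pch2* stayed below *rad50S*, while on III it stood above.

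**Figure D4:**
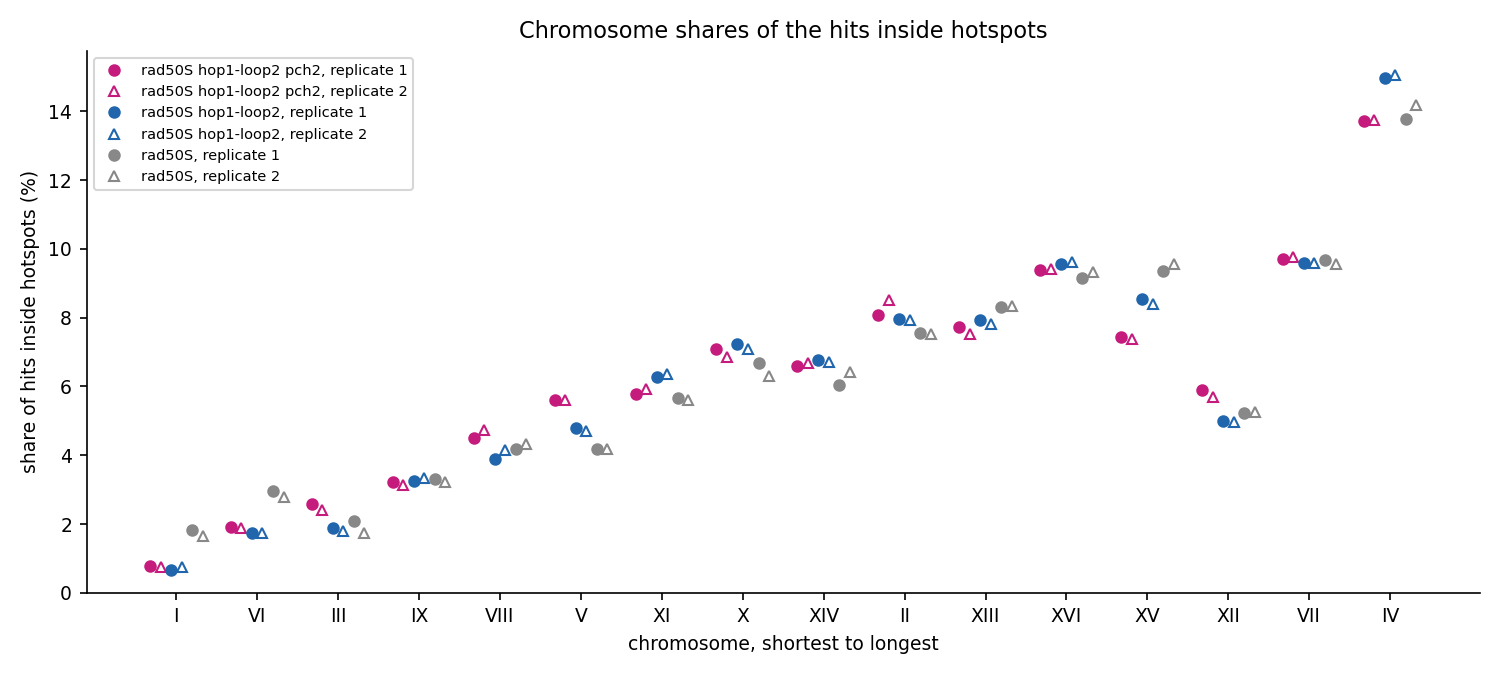
Share of the hits inside hotspots (%) on each chromosome, ordered from the shortest to the longest, for each library. On III the *rad50S hop1-loop2 pch2* points (pink) lie at 2.58% and 2.41% and the *rad50S hop1-loop2* points (blue) at 1.88% and 1.79%, and on IV and XV the pink points lie below the blue ones.

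The change also ran with the activity of a hotspot in *rad50S*, whose libraries entered neither the fit nor the hotspot calling. The sets below were sorted on *rad50S*, so the *rad50S* shares printed beside them follow from the sorting. Hotspots weak in *rad50S* were included only because they passed the call on the mean of the 4 *hop1-loop2* libraries. A site weak in *rad50S hop1-loop2* could pass that call through high *pch2* levels, so the rise among the weakest is a description. The sets were not formed on hotspots called on *rad50S*. The 660 hotspots weakest in *rad50S*, at up to 31.7 HpM, took 5.22% and 5.19% of hits inside hotspots in *rad50S hop1-loop2 pch2*, against 3.78% and 3.81% in *rad50S hop1-loop2* and 1.37% and 1.25% in *rad50S*. The 660 strongest in *rad50S* took 52.7% and 53.3% in *rad50S hop1-loop2 pch2*, against 56.6% and 57.2% in *rad50S hop1-loop2* and 66.6% and 66.9% in *rad50S*. Neither pair of groups overlapped. In 5 sets of 660 from the weakest to the strongest, the ratio of the mean shares was 1.37, 1.16, 1.11, 1.01 and 0.93. As HpM of the hits inside hotspots, 111 of the weakest 660 rose and 12 fell, and 82 of the strongest 660 rose and 180 fell, beside 12.8% and 11.8% of all hotspots. On all nuclear hits 48 rose and 24 fell among the weakest and 9 rose and 156 fell among the strongest, beside 3.36% and 12%. After subtraction of each library's density outside hotspots, the weakest set still held 5.16% and 4.99% in *rad50S hop1-loop2 pch2* and 3.73% and 3.75% in *rad50S hop1-loop2*.

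Hotspots close to chromosome ends were few. Beside the counts below, 12.8% of all 3300 hotspots rose and 11.8% fell as HpM of the hits inside hotspots. On all nuclear hits 3.36% of all hotspots rose and 12% fell. Under 10 kb from the first or last hit of a chromosome there were 10 hotspots, of which 4 rose and 0 fell as HpM of the hits inside hotspots, and from 10 to 20 kb there were 35, of which 7 rose and 0 fell. The 10 outermost took 0.12% and 0.13% of hits inside hotspots in *rad50S hop1-loop2 pch2*, against 0.072% and 0.067% in *rad50S hop1-loop2* and 0.15% and 0.14% in *rad50S*. The next 35 took 0.36% and 0.29% in *rad50S hop1-loop2 pch2* and 0.26% and 0.22% in *rad50S hop1-loop2*. From 20 to 50 kb, 43 of 175 rose and 7 fell, whereas from 50 to 100 kb 46 of 411 rose and 59 fell, and farther in 321 of 2669 rose and 324 fell. On all nuclear hits 4 of the outermost 10 rose and 0 fell, as did 3 of the next 35. The later classes then had 13 rising and 7 falling, 14 rising and 65 falling, and 77 rising and 324 falling hotspots.

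Hits outside hotspots made up 15.4% and 36.3% of the total in *rad50S hop1-loop2 pch2*, against 11.1% and 11.3% in *rad50S hop1-loop2*. The *rad50S* libraries had 17.4% and 19.8%. Hotspots were called without the *rad50S* libraries, so any site active only in *rad50S* counts as outside. The *rad50S* shares are therefore not compared with the others. The mean share was 25.8% ± 14.8 (SD, n = 2) in *rad50S hop1-loop2 pch2* and 11.2% ± 0.092 (SD, n = 2) in *rad50S hop1-loop2*. Both *pch2* libraries lay above, and the spread between them was as large as the difference of 14.6 percentage points. The two-sided exact permutation p of 0.33 is the smallest that 4 libraries allow. Replicate 1 alone was 4.15 points above the *rad50S hop1-loop2* mean. With each strand position of all reads counted once, without thinning, the genotypes overlapped (44.5% and 53.3% in *rad50S hop1-loop2 pch2*, against 44.8% and 46.8% in *rad50S hop1-loop2*). That count covered 560032 and 190943 positions in *rad50S hop1-loop2 pch2* and 850416 and 992436 in *rad50S hop1-loop2*. The overlap therefore cannot be told apart from an effect of depth.

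The excess was spread over the genome. More than 5 kb from any hotspot, the density was 9.87 and 29.4 HpM per kb in *rad50S hop1-loop2 pch2*, against 5.75 and 5.45 HpM per kb in *rad50S hop1-loop2*. Within 200 bp of a hotspot it was 34.4 and 45.3 HpM per kb in *rad50S hop1-loop2 pch2* and 30.2 and 32.5 HpM per kb in *rad50S hop1-loop2*. The *pch2* libraries were thus higher at every distance, and replicate 2 was nearly flat beyond 200 bp. The excess of hits in replicate 2 sat on few positions, as given above, and the part of repeated molecules in it was not tested.

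**Figure D5:**
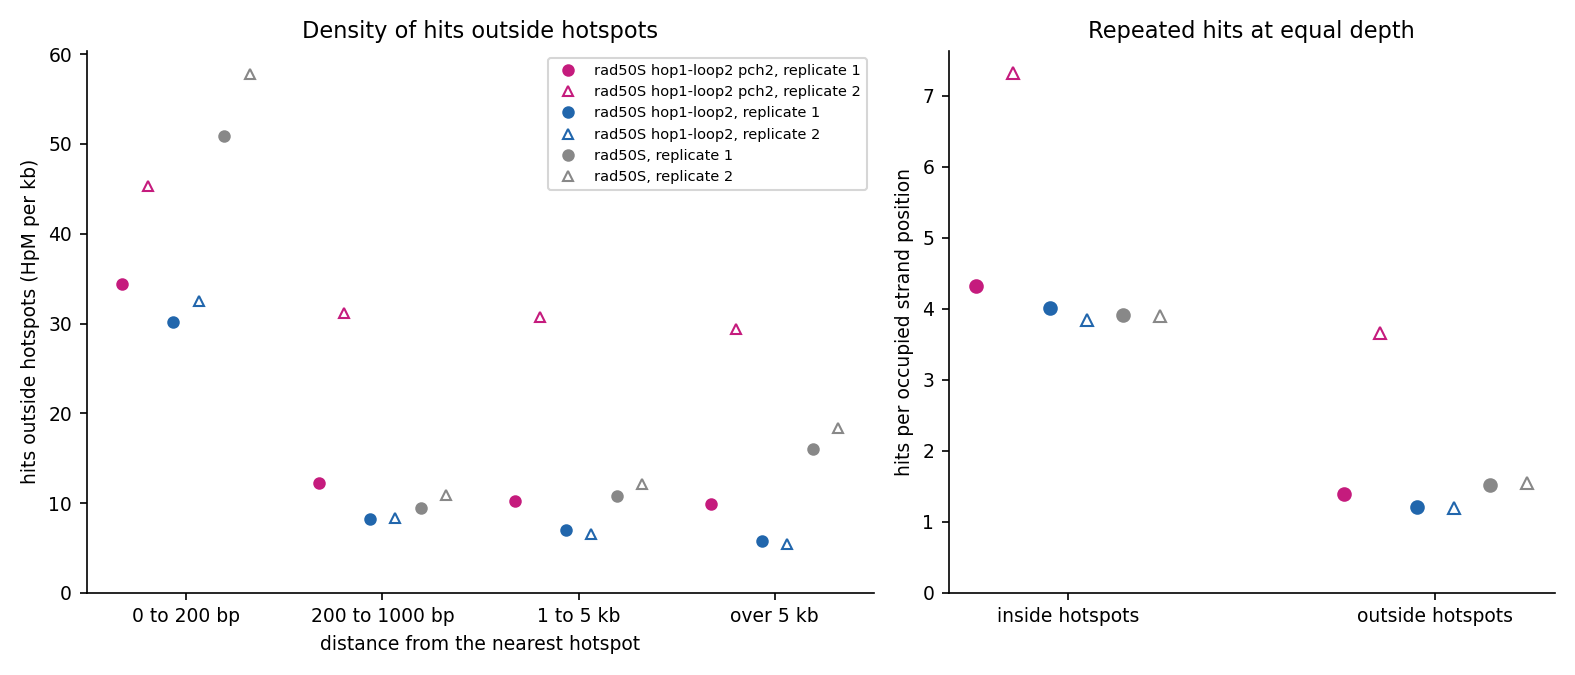
Left, density of hits outside hotspots (HpM per kb) by distance from the nearest hotspot. Right, hits per occupied strand position inside and outside hotspots at equal depth. *rad50S hop1-loop2 pch2* replicate 2 (open pink triangles) lies at 29.4 HpM per kb beyond 5 kb and at 3.67 hits per position outside hotspots, above all other libraries in both, whereas replicate 1 (filled pink circles) lies at 9.87 and 1.39.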

How the data were processed

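The authors mapped CC-seq reads to the SK1 genome, and the deposited files give RPM values (HpM) per strand and base; duplicate handling is not given in the sources used here. Whole reads were recovered from the step size (100% of values whole within 0.01). For each of the 4 libraries Watson and Crick hits were summed, smoothed with a Hann window of about 200 bp, and hotspots called above 0.2 HpM per bp, at least 25 bp long, with gaps under 200 bp merged. Libraries were thinned to 1026669 hits. limma 3.58.1 (R 4.3.3, eBayes; with a trend except for chromosome shares) was run on log2(HpM + 1), or on log2 shares, over all features, with Benjamini-Hochberg adjustment at 0.05. The recovered reads were also tested with edgeR 4.0.16 and with DESeq2 1.42.0. Fits were tested on simulated data. Fold changes on this scale understate changes at weak sites. The limma p-values draw on a spread pooled over all features, and not only on the 2 libraries per genotype at each feature. For tiles on all hits the pooled spread stands in for the replicate spread of the tile itself. Very small p-values there do not measure how well the replicates of that tile agree.

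Hotspots named are the 5 strongest and, in each direction, the 5 with the largest change among those that passed, averaged 50 HpM or more over the 4 libraries and did not overlap between genotypes; tiles followed the same rule, with runs of at least 4 called neighbours. Comparisons and lists were chosen with earlier results of these data known. SNP-ChIP files were not used.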

Additional observations from a re-analysis of the deposited data

How the results depend on the processing

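Counts of hotspots called, higher and lower, were 111 and 396 in the analysis reported. They were 68 and 209 with all reads, 421 and 390 as HpM of the hits inside hotspots, 229 and 174 centred on the median change, and 376 and 368 after subtracting the density outside hotspots. They were 75 and 187 at a hotspot threshold of 0.1, and 38 and 151 in hotspots called on *rad50S*. With each strand position counted once they were 0 and 0. Positions counted once were taken from all reads without thinning, here and below, so depth differed between libraries. By edgeR the counts were 467 and 421 with TMM, against 115 and 273 with library totals. DESeq2 gave 457 and 419. Leaving out each library gave 5 to 103 higher and 0 to 1002 lower, the extremes of the second coming from *rad50S hop1-loop2 pch2* replicate 1 left out and from either *rad50S hop1-loop2* replicate left out, where the lone library is assumed to vary like the other genotype. Changing the scale and the libraries together, as HpM of the hits inside hotspots without *rad50S hop1-loop2 pch2* replicate 2, gave 474 and 422. Tile counts of 178 and 171 became 103 and 110 with 20 kb tiles, 81 and 301 when centred, 0 and 0 with positions counted once, and 54 to 579 and 68 to 211 with a library left out. Chromosome counts of 6 and 3 became 3 and 2 for hits outside hotspots, where I turned to −0.029 and VI to −0.10 (log2), and 4 to 5 and 0 to 4 with a library left out. The difference in hits outside hotspots ranged over 4.15 to 25.1 points with a library left out and was 3.09 points with positions counted once, where the genotypes overlapped (44.5% to 53.3% in *rad50S hop1-loop2 pch2* and 44.8% to 46.8% in *rad50S hop1-loop2*). The causes were not tested.

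With the replicate number as a block, counts were 126 and 394 for hotspots, 124 and 162 for tiles, and 6 and 6 for chromosomes, X, XIII and XVI being added. The numbers share only a label, since deviations correlated at 0.09 over hotspots and −0.19 over tiles. A crossed pairing, added after seeing the data, gave 80 and 284 hotspots and 138 and 168 tiles.

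Depth limits the weakest sites, where 1 hit of the shallowest library is worth 0.97 HpM. With 2 libraries per genotype and 1 of them standing apart, counts of calls depend on the scale.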

Other observations

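Changes of neighbouring hotspots resembled each other. On HpM of the hits inside hotspots, the log2 changes of 1026 pairs 1 to 2 kb apart correlated at r = 0.53, those of 9728 pairs 10 to 20 kb apart at 0.40, and those of 44517 pairs 50 to 100 kb apart at 0.18. Pairs share hotspots and libraries, so these values are descriptions.

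Spo11 leaves a staggered pair of ends, so a Crick hit is often found 1 base to the right of a Watson hit. With every library reduced to 190943 occupied strand positions, such a partner was present outside hotspots for 4.40% and 1.23% of Watson positions in *rad50S hop1-loop2 pch2*, against 5.05% and 4.63% in *rad50S hop1-loop2*. At offsets of 6 to 10 bases the shares were 1.07% and 0.57% in *rad50S hop1-loop2 pch2* and 1.33% and 1.43% in *rad50S hop1-loop2*. Outside hotspots replicate 1 was thus close to *rad50S hop1-loop2*, and replicate 2 was lower. Inside hotspots replicate 2 was highest. A partner was present there for 18.5% and 30.8% of Watson positions in *rad50S hop1-loop2 pch2*, against 14.8% and 13.2% in *rad50S hop1-loop2*.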
